A study of Arabidopsis thaliana with 18 samples.

Results

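The comparison described here asks how the response of root cells to the auxin indole-3-acetic acid (IAA) differed when the cells also carried a plasmid for IAA19mII. Each probeset's log2 response to IAA (IAA minus mock) in IAA19mII cells was set against the same response in empty vector cells. The difference of the 2 responses used 12 of the series' 18 arrays, 3 per group, and its test took the spread from all 18. Of the 22746 probesets on the ATH1 array, an Affymetrix expression array for Arabidopsis thaliana, 16892 had enough signal to be tested, and 9509 of these carry the name of just 1 gene in the platform annotation.

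All plants were Col-0 seedlings with Pwer::GFP, a green reporter under the promoter of WEREWOLF, a gene active in root epidermis and lateral root cap. Roots were cut from seedlings 7 days old and digested to protoplasts (cells without walls) for 3 h. The protoplasts received either pMON999_mRFP, the empty vector, or pBeaconRFP_IAA19mII, the over-expressor, by polyethylene glycol transformation. After a night they were given 5 µM IAA, or its solvent alone as mock. Treatment lasted 3 h, and doubly fluorescent cells, green from the reporter and red from the plasmid, were sorted. The plasmid backbones differ, so every comparison of IAA19mII with empty vector cells also holds the backbone, and the labels name neither the promoter that drives IAA19mII nor the origin of replicates. P-values therefore measure the spread between these arrays, which may be technical.

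Auxin acts by bringing Aux/IAA proteins, which sit on auxin response factors and hold auxin genes silent, to a ubiquitin ligase for destruction through a short stretch called domain II. IAA19 is a member of this family, and many of the genes that auxin switches on first encode Aux/IAA proteins themselves, GH3 enzymes that tie IAA to amino acids, and transcription factors of the LBD and HD-ZIP families. The labels do not spell out mII; Aux/IAA proteins with a mutated domain II are known to escape auxin-driven destruction. The annotation used matches no probeset to IAA19 alone, so IAA19 was not analysed here by name.

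Values are MAS5 signals, the array's linear measure of brightness, and were tested as log2(signal + 16), where 16 is a pseudocount that damps noise near the floor and understates changes of dim genes. Values after ± are standard errors on that scale, pooled over groups of 3 arrays.

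The response to IAA differed between the populations for 15 probesets (limma, adjusted p under 0.05), or 0.0888% of those tested. In 7 of them, 0.0414% of those tested, the response was lower in IAA19mII cells, and in 8, or 0.0474%, it was higher. The 7 include 258399_at, which was listed at 0 on all 3 IAA19mII arrays with IAA. Whether that 0 is a measured level is not known. With the arrays centred on their medians the split of 13 calls was 4 higher and 9 lower. All 7 lower ones were probesets that IAA raised in empty vector cells (adjusted p under 0.05). All 8 higher ones had a negative response in empty vector cells, 7 of them past the test. The empty vector response is itself a term of the difference, so this says which group means made up the difference and is no separate evidence. The response in IAA19mII cells was between -0.5 and 0.5 for 7 of the 8 higher probesets and between -0.6 and 0.6 for 4 of the 7 lower ones. At an unadjusted p under 0.05 there were 825 probesets, 4.88% of those tested, 425 higher and 400 lower. Over all tested probesets the median difference was -0.02, with 5% below -0.90 and 5% above 0.85.

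In cells with the empty vector IAA changed 124 probesets, 0.734% of those tested, and 14 of the 124 were called in the difference. In IAA19mII cells IAA changed 15 probesets, 0.0888%, with 13 higher (0.077%) and 2 lower (0.0118%), and 3 of these were called in the difference. Probeset 258399_at, listed at 0 on each IAA19mII array with IAA, is 1 of the 2 lower ones and 1 of the 3. The counts of 124 and 15 do not compare the responses, since only the difference does that. Of the 15 probesets called in it, 4 higher and 3 lower match a single gene, and 8 have no single gene in the annotation used.

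IAA29 showed the largest difference among the called single genes. It encodes an Aux/IAA repressor and is itself an auxin-induced gene. Its signals in empty vector cells were 8.1, 1.5 and 56 in mock and 1164, 1109 and 911 with IAA. In IAA19mII cells they were 17.8, 1.5 and 9.3 in mock and 23.7, 38.7 and 6 with IAA. All 3 empty vector arrays with IAA were high and the other 9 arrays were low and overlapped each other. On the log2(signal + 16) scale the response was 5.10 ± 0.48 (SE) with the empty vector and 0.56 ± 0.48 with IAA19mII. The difference was -4.54 ± 0.68 (limma adjusted p = 0.0022).

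IAA30, a family member that lacks the canonical domain II, kept part of its response. Its empty vector signals were 75, 113 and 72.9 in mock and 4203, 3772 and 2997 with IAA. In IAA19mII cells the mock signals were 10.9, 11.8 and 58.2, and with IAA they were 158, 213 and 160.5. The mock and IAA arrays did not overlap in either population, and with IAA the IAA19mII arrays lay far below the empty vector arrays. The response was 5.16 ± 0.35 with the empty vector and 2.33 ± 0.35 with IAA19mII, where it also passed its own test (limma adjusted p = 0.00153). The difference was -2.84 ± 0.50 (limma adjusted p = 0.0135). IAA30 was the called lower single gene that differed already in mock: its level there was 2.66-fold lower in IAA19mII cells on the log2(signal + 16) scale, which understates so dim a gene (limma adjusted p = 0.007), and with IAA it was 19.0-fold lower (limma adjusted p = 9.18e-10). The call was lost without empty vector mock replicate 3, IAA replicate 1 or IAA replicate 2.

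AT4G37380 completed the called lower single genes. Its empty vector signals were 90.2, 119 and 150 in mock and 980, 1215 and 851 with IAA. Those in IAA19mII cells were 91.2, 66.2 and 81.9 in mock and 77, 20.8 and 115 with IAA. The 6 IAA19mII arrays overlapped, and all lay below the empty vector arrays with IAA. The response was 2.94 ± 0.47 against -0.32 ± 0.47, a difference of -3.25 ± 0.66 (limma adjusted p = 0.0456). This call stood near the threshold: it was lost in 11 of 12 fits that left out 1 array and held without IAA19mII IAA replicate 3.

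**Figure D1:**
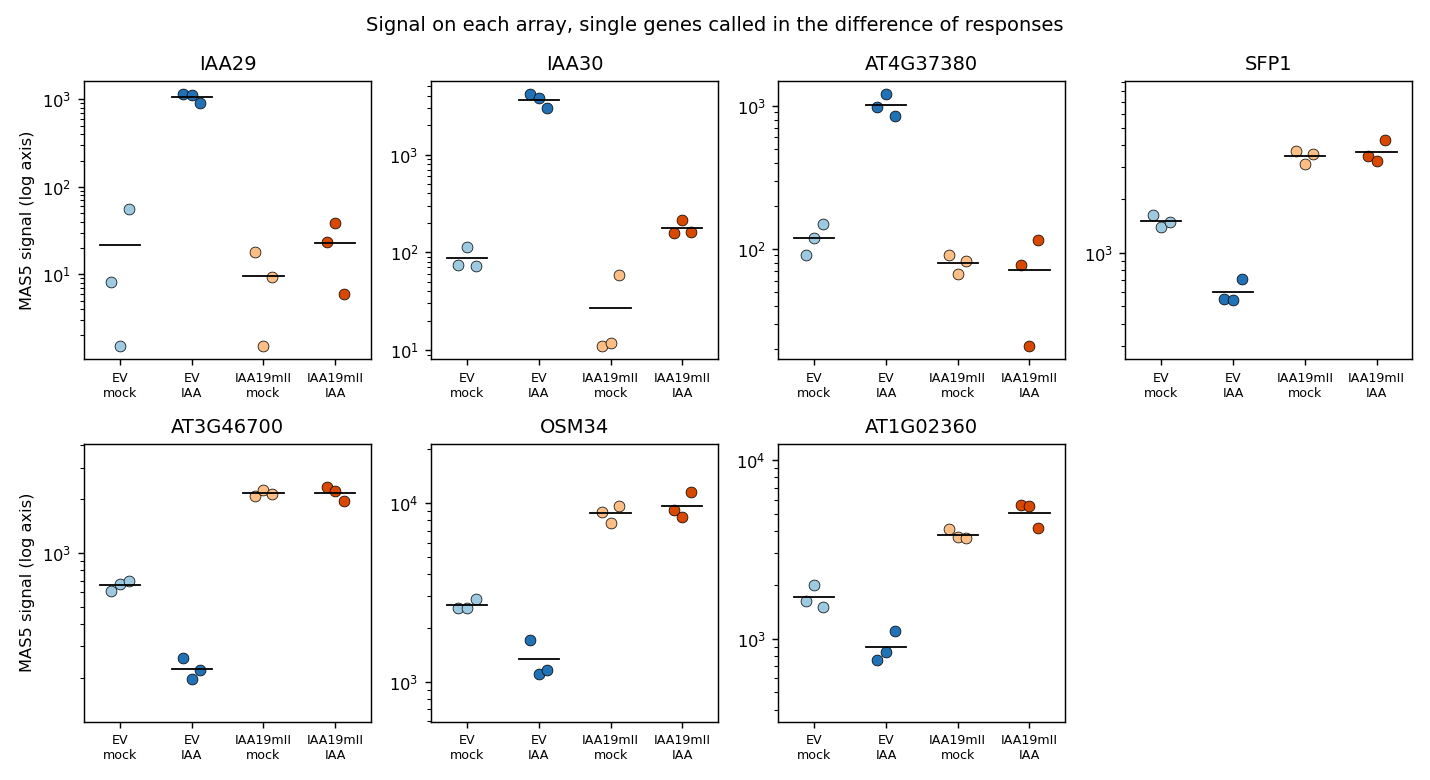
MAS5 signal (log axis) on each of the 12 arrays for the 7 single genes called in the difference of responses; points are arrays and bars are group means of the signal. For IAA29, IAA30 and AT4G37380 the empty vector arrays with IAA stand high above the other groups, and for SFP1, AT3G46700, OSM34 and AT1G02360 they are the lowest of the 4 groups while both IAA19mII groups lie above the empty vector mock arrays.

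The other 4 lower probesets have no single gene in the annotation used. Probeset 266346_at passed the test under all 27 other settings tried. Its empty vector signals were 10, 18.8 and 11.6 in mock and 518, 473 and 492 with IAA. With IAA19mII they were 660, 672 and 609 in mock and 711, 719 and 670.2 with IAA. This pattern was unlike that of IAA29: the mock level in IAA19mII cells was already above the IAA level in empty vector cells. The difference was -4.01 ± 0.45 (limma adjusted p = 2e-05), while with IAA the populations differed by 0.49 (limma adjusted p = 0.29). Probeset 258399_at was listed at 0 on all 3 IAA19mII arrays with IAA and at 35135, 26034 and 33915 on the 3 IAA19mII mock arrays, so no fold is given for it. Its empty vector signals were 629, 677 and 881 in mock and 4918, 5700 and 5266 with IAA. In mock cells of IAA7mII, the other over-expressor of the series, it read 83.9, 83.8 and 67.2. The annotation used does not name its gene, and whether it reads the over-expressed IAA19 was not tested. Without this probeset, an alternative chosen after its values were seen, the count of calls was 14.

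The strongest auxin responders showed how far the IAA19mII response could reach. GH3.3, which encodes an enzyme that joins IAA to amino acids, had empty vector signals of 34.2, 38.4 and 66 in mock and 5928, 5184 and 4842 with IAA. The IAA19mII arrays read 4.4, 1.5 and 13.3 in mock and 965, 375 and 1184 with IAA. IAA raised it in both populations, with log2 responses of 6.45 ± 0.44 and 5.14 ± 0.44 (limma adjusted p = 3.95e-10 and 5.7e-08). Both IAA19mII groups lay below the matching empty vector groups, by -1.47 in mock (limma adjusted p = 0.0231) and -2.78 with IAA (limma adjusted p = 3.36e-05) on the log2(signal + 16) scale, where the mock value understates the gap because the IAA19mII mock signals are below the added 16. The difference of responses, -1.31 ± 0.62, did not pass the test (limma adjusted p = 0.988, 95% interval -2.58 to -0.04). Counted in signal units, the rise with IAA in IAA19mII cells was 15.8% of that in empty vector cells, whereas on the log2 scale the response was 79.7% of it, a share that went from 102% to 47.1% between the smallest and the largest pseudocount tried.

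HAT2, an HD-ZIP class II transcription factor gene, showed a like pattern. Its signals went from 14.4, 8.6 and 42 to 1134, 807 and 622 with IAA in empty vector cells, and from 7.1, 15.7 and 1.3 to 79, 129 and 197 in IAA19mII cells. Mock and IAA arrays did not overlap in either population, and both responses passed the test, at 4.59 ± 0.48 and 2.62 ± 0.48. The difference was -1.97 ± 0.68 (limma adjusted p = 0.69). WES1, another GH3 gene also named GH3.5, had high signals throughout, from 3456, 3048 and 2855 to 10329, 8292 and 8494 with the empty vector, and from 2473, 2964 and 2764 to 4704, 5660.4 and 5339 with IAA19mII. IAA raised it in both, by 1.53 ± 0.17 and 0.93 ± 0.17, and the difference of -0.59 ± 0.24 did not pass the test (limma adjusted p = 0.936). The rises of IAA30, HAT2 and WES1 in IAA19mII cells were 4.21%, 15.2% and 42.2% of those in empty vector cells when counted in signal units.

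LBD16 and LBD29, transcription factor genes that act in lateral root initiation, had negative differences that did not pass the test. LBD16 had empty vector signals of 114, 99.7 and 98.8 in mock and 521, 727 and 568 with IAA, and IAA19mII signals of 121, 120.1 and 263 in mock and 300.4, 111 and 219 with IAA. The 2 IAA19mII groups overlapped and both lay below the empty vector arrays with IAA. Its response was 2.36 ± 0.41 against 0.28 ± 0.41, a difference of -2.08 ± 0.59 (limma adjusted p = 0.379). LBD29 was near the floor of the array in 3 of the groups, between 1.7 and 16.1, and stood at 86.7, 86.8 and 57 in empty vector cells with IAA. Its difference was -1.86 ± 0.50 (limma adjusted p = 0.286).

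Among the other genes that IAA raised with the empty vector, AT1G64405 came closest to a call, at -2.77 ± 0.57 (limma adjusted p = 0.0506). Its signals were 24.8, 28 and 26 in empty vector mock, 195, 329 and 243 with IAA, and between 6.7 and 54.6 on the 6 IAA19mII arrays. AT3G62110, AT5G43450 and TRM28, which is named for a motif that recruits TON1, had differences of -2.46 ± 0.58, -1.42 ± 0.36 and -1.61 ± 0.41 (limma adjusted p = 0.139, 0.243 and 0.245). For each of these 4 genes the response passed the test with the empty vector and lay between -0.12 and -0.07 with IAA19mII. AT5G43450 differed from the others in its levels. Its IAA19mII mock arrays, at 2140.2, 1594 and 2056, were already above the empty vector mock arrays at 652, 653 and 803, and with IAA the populations differed by 0.01.

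WAG2, a kinase gene of auxin transport, had a difference of -1.60 ± 0.65 (limma adjusted p = 0.928). CLE44, a gene for a small signalling peptide, had one of -1.91 ± 0.66 (limma adjusted p = 0.683), and GH3.1 one of -1.01 ± 0.67 (limma adjusted p = 0.997). IAA raised all 3 with the empty vector, and none of the 3 passed its own test with IAA19mII. CLE44, GH3.1 and GH3.3 were named here after their values were seen.

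**Figure D2:**
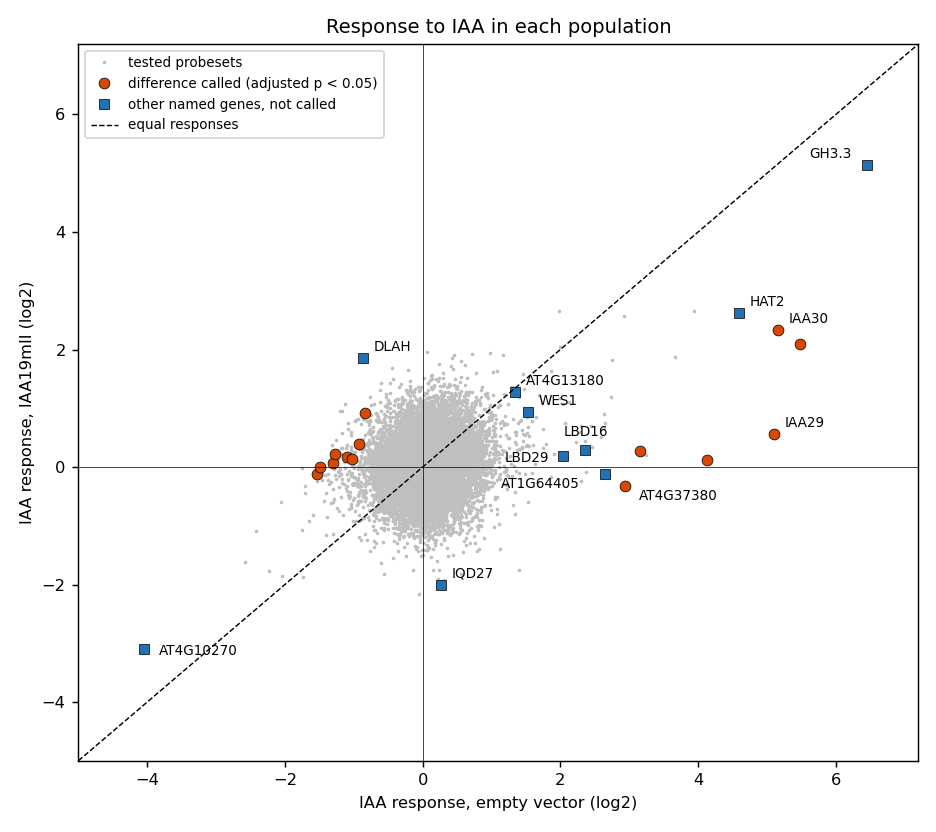
Log2 response to IAA in empty vector cells (x axis) and IAA19mII cells (y axis) for the tested probesets, with the called differences in orange and other named genes as blue squares. Called lower probesets lie to the right and below the line of equal responses, called higher ones lie left of 0, 7 of the 8 within 0.5 of a zero response in IAA19mII cells and 267083_at at 0.92, and GH3.3 at 6.45 and 5.14 lies below the line without a call; probeset 258399_at, listed at 0 on the IAA19mII arrays with IAA, is left out.

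The size of the difference and the call depended on the pseudocount added before the logarithm, for genes with mock signals near the floor, such as IAA29 and HAT2, and for some with higher ones, such as TRM28. Pseudocounts of 1, 4, 16 and 64 were tried, and a largest one 4 times as large again. In that order the number of called probesets was 5, 7, 15, 27 and 36, and the number of lower calls was 2, 2, 7, 17 and 29. IAA29 kept its direction under all 5, from -5.32 to -2.18, and was called with 16 and above. IAA30 ranged from -2.31 to -3.18 and was called with the same pseudocounts. GH3.3 turned from 0.16 at a pseudocount of 1 to -0.42, -1.31, -2.06 and -2.22, and was called with the largest (limma adjusted p = 0.00156). HAT2 was called with the largest as well, at -1.42 (limma adjusted p = 0.00125), as were LBD29, CLE44, WAG2 and TRM28. WES1, whose signals were far above any pseudocount tried, stayed between -0.60 and -0.58 and was never called.

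**Figure D3:**
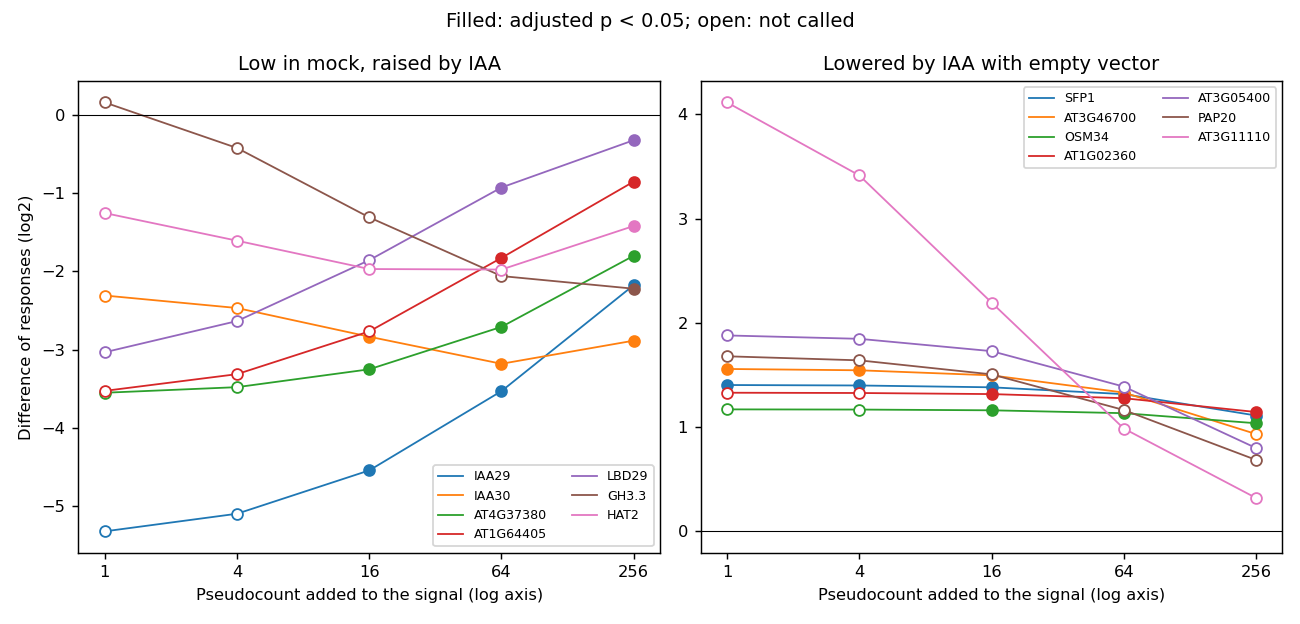
Difference of responses (log2) against the pseudocount added to the signal (log axis), with filled points at adjusted p under 0.05 and open points above it. Genes low in mock (left) change in size and call with the pseudocount, and GH3.3 lies at 0.16 with a pseudocount of 1; SFP1 (right) stays called throughout, between 1.11 and 1.40.

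The 4 called higher single genes had high signals, and IAA lowered each of them in empty vector cells. SFP1, which encodes a sugar porter, had empty vector signals of 1632, 1397 and 1486 in mock and 552, 545 and 709 with IAA. In IAA19mII cells they were 3703, 3129 and 3549 in mock and 3457, 3265 and 4258 with IAA. The 2 IAA19mII groups overlapped, and both lay above all 6 empty vector arrays. The response was -1.31 ± 0.16 with the empty vector and 0.07 ± 0.16 with IAA19mII. The difference of 1.38 ± 0.22 (limma adjusted p = 0.00591) was lost in 1 of 27 other settings, the fit without an intensity trend.

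AT3G46700 had empty vector signals of 611, 671 and 695 in mock and 256.3, 197 and 221 with IAA. Those in IAA19mII cells were 2093, 2245 and 2132 in mock and 2348, 2218 and 1943 with IAA. The response was -1.49 ± 0.19 against 0.00 ± 0.19, and the difference was 1.50 ± 0.27 (limma adjusted p = 0.0135). The call was lost without empty vector mock replicate 2 or 3, empty vector IAA replicate 2, IAA19mII mock replicate 1 or IAA19mII IAA replicate 1.

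OSM34, which encodes an osmotin-like defence protein, had empty vector signals of 2573, 2593 and 2891 in mock and 1721, 1109 and 1169.9 with IAA, and IAA19mII signals of 8919.7, 7724 and 9644 in mock and 9086, 8345 and 11566 with IAA. AT1G02360, on the list of defence protein genes, had empty vector signals of 1633, 1989.5 and 1501 in mock and 756, 838 and 1109 with IAA, and IAA19mII signals of 4095, 3689.7 and 3663 in mock and 5579, 5500.3 and 4132 with IAA. For both genes the empty vector arrays with IAA were the lowest group and every IAA19mII array was above every empty vector array. The differences were 1.16 ± 0.23 and 1.32 ± 0.27 (limma adjusted p = 0.041 and 0.0456). Both calls were lost when the arrays were centred on their medians or quantile-normalized, and each was lost in 10 of the 12 fits that left out 1 array: OSM34 held without empty vector IAA replicate 1 or IAA19mII IAA replicate 2, and AT1G02360 without empty vector IAA replicate 3 or IAA19mII IAA replicate 3.

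Of the 8 called higher probesets, 6 were already above the empty vector in mock and all 8 were above it with IAA (limma adjusted p under 0.05). Over all tested probesets IAA19mII cells were higher at 6.64% in mock and 9.26% with IAA, and lower at 7.83% and 14.3%, so that 14.5% and 23.5% differed in all. Of the 7 called lower probesets, 1 was below the empty vector in mock and 6 were below it with IAA, among them 258399_at, listed at 0 there. SFP1 was 2.29-fold higher in IAA19mII cells in mock and 5.95-fold higher with IAA, AT3G46700 was 3.22-fold and 9.09-fold higher, OSM34 was 3.24-fold and 7.25-fold higher and AT1G02360 was 2.24-fold and 5.57-fold higher. The mock and IAA arrays of the empty vector did not overlap for any of the 4 genes, against 15.3% of all tested probesets. Nor did the IAA19mII and empty vector arrays overlap for them, in mock (36.7% of all tested probesets) or with IAA (37.8%). The difference that picked these genes and probesets is made from the same group means. The counts here describe those means and are no separate evidence. Among the 4 probesets without a single gene, 253666_at had a difference of 1.27 ± 0.22 (limma adjusted p = 0.0119) with a mock level above that of the empty vector. Probeset 267083_at, at 1.76 ± 0.33 (limma adjusted p = 0.0249), differed from it in pattern. Its mock signals overlapped between the populations, at 1171, 1768 and 1478 with the empty vector and 1770.0, 1115 and 1679 with IAA19mII. With IAA they lay apart, at 593, 809 and 1093 against 2551, 3255 and 2759.7.

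The next 10 single genes with a positive difference, none of them past the test, ran from 0.99 to 2.19, and 8 of them fell with IAA in empty vector cells. Over all tested probesets 0.403% did so, but these genes were picked by a difference that contains the empty vector response, so nothing is read from that count. AT3G05400, of the sugar porter list, was nearest to a call at 1.73 ± 0.36 (limma adjusted p = 0.0518). Its empty vector signals were 278, 337 and 521 in mock and 89.1, 74 and 139 with IAA, and its 6 IAA19mII arrays lay between 1243 and 1461. PAP20, a purple acid phosphatase gene, had a difference of 1.51 ± 0.34 (limma adjusted p = 0.0947), with empty vector signals of 181, 171 and 172 in mock and 88, 70.9 and 51 with IAA. Its IAA19mII signals were 1205, 917 and 1151 in mock and 990.4, 1651 and 1564 with IAA, the widest gap between the populations among these 10 genes on the log2 scale. CYP71B23, a cytochrome P450 gene, and MGL, which encodes methionine gamma-lyase, had differences of 1.15 ± 0.30 and 0.99 ± 0.27 (limma adjusted p = 0.27 and 0.304). MGL differed by -0.03 between the populations in mock and was 0.96 higher in IAA19mII cells with IAA (limma adjusted p = 0.000564). The other 6 were AT5G54130 (1.50), AT5G64100 (1.28), AT1G14330 (1.05), AT3G11110 (2.19), AT1G64590 (1.46) and AT5G05600 (1.06).

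**Figure D4:**
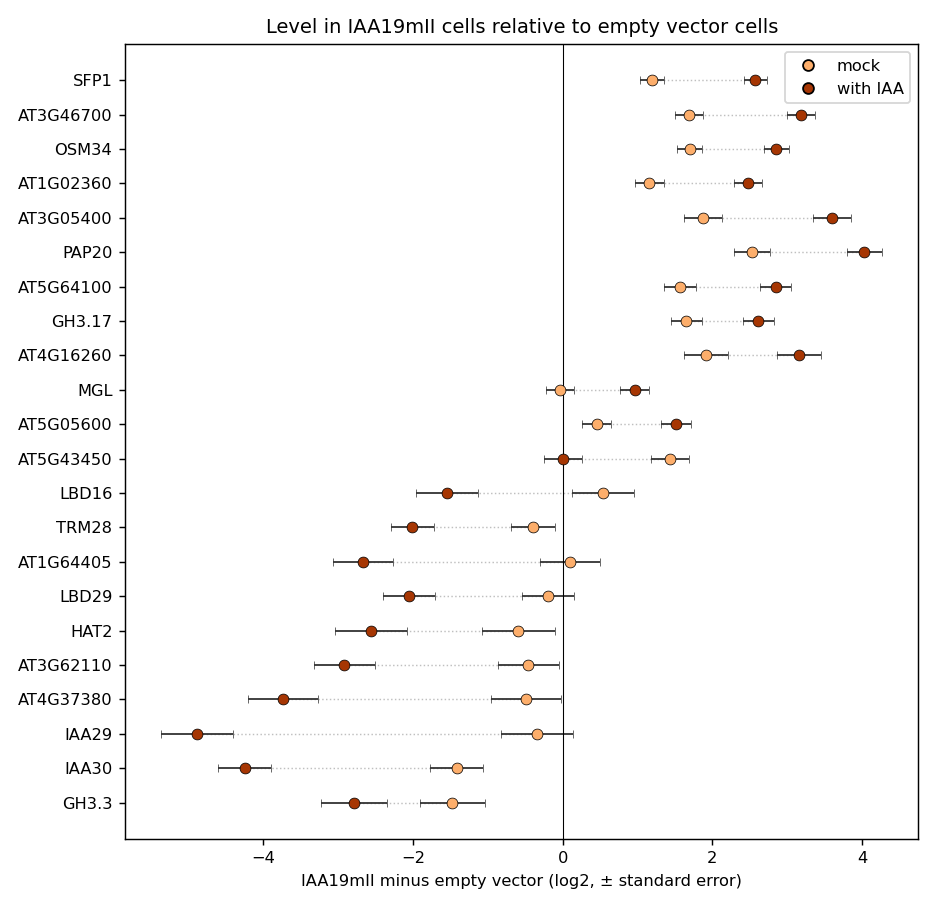
Log2 level in IAA19mII cells minus that in empty vector cells, in mock (light) and with IAA (dark), with standard errors, for called and uncalled named genes. SFP1, AT3G46700, OSM34 and AT1G02360 are above 0 in mock and further above it with IAA, IAA29 and AT1G64405 are near 0 in mock and below it with IAA, and AT5G43450 is at 1.43 in mock and 0.01 with IAA.

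In some genes with a negative difference the IAA19mII response was itself below 0. IQD27, named for its calmodulin-binding IQ domain, had empty vector signals of 61.2, 47.8 and 56.7 in mock and 83.6, 74.8 and 53.2 with IAA. With IAA19mII they were 94, 107 and 54.6 in mock and 26.6, 1.6 and 3.8 with IAA. It fell with IAA in IAA19mII cells, by 2.00 on the log2 scale (limma adjusted p = 0.0252), and its response with the empty vector was 0.27. The difference, -2.27 ± 0.54, did not pass the test (limma adjusted p = 0.145). AT5G28010, AT5G58660, AT1G62860 and AT2G29660 had responses of -1.81, -1.39, -1.39 and -1.20 in IAA19mII cells and 0.55, 0.81, 1.12 and 0.89 with the empty vector, none past its own test. Their differences lay between -2.50 and -2.09 (limma adjusted p from 0.202 to 0.252). These genes were dim, and the sizes depend on the pseudocount. For AT5G28010 the difference went from -5.14 with the smallest pseudocount tried to -0.32 with the largest. In the opposite direction DLAH, which encodes an acylhydrolase and was named after its values were seen, had empty vector signals of 73, 137 and 48.1 in mock and 37.5, 42.8 and 29.7 with IAA. Its IAA19mII signals were 115, 113 and 394 in mock and 546, 901 and 628 with IAA. Its difference was 2.72 ± 0.74 (limma adjusted p = 0.305).

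Few genes of the auxin lists could be read, because the annotation used gives a single gene to only part of the array. Of 28 Aux/IAA genes 7 had a named probeset and 4 were tested. Of these, 2 were called lower, against 0.0414% of all tested probesets. The other 2, IAA18 and IAA34, had differences of 0.17 ± 0.37 and 0.29 ± 0.48. The median over the 4 was -1.33, which lies between the called and the uncalled members, against -0.02 over all tested probesets. The auxin lists were drawn up with earlier results of these arrays known, so their counts describe the members only. Of 7 GH3 genes 4 were tested and none was called, with a median of -0.80. GH3.17 was the exception in sign, at 0.97 ± 0.29 (limma adjusted p = 0.503). It fell with IAA in empty vector cells, from 3058, 2122 and 1574 to 1274, 1114 and 1066, and in IAA19mII cells it lay between 6095 and 8001 on all 6 arrays. No member of the lists of ARF transcription factors, auxin receptors and co-repressors, or ACS ethylene synthesis genes was analysed here.

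Wall-loosening genes showed no shared direction. Of 22 expansin and XTH genes 8 were tested, 4 with positive and 4 with negative differences, a median of 0.05 and no call. XTH18 was at 1.06 ± 0.47 and EXPA16 at -1.08 ± 0.54 (limma adjusted p = 0.98 and 0.988). XTH19 had nearly equal responses, 1.00 and 0.88, neither past the test, and its difference was -0.12, with a 95% interval of -0.93 to 0.69. AT4G13180, named after its values were seen, had responses of similar size. IAA raised it in both populations, by 1.35 with the empty vector and 1.28 with IAA19mII (limma adjusted p = 0.00293 and 0.0271), and the difference was -0.07, with a 95% interval of -0.78 to 0.64. Its levels in IAA19mII cells were lower in both treatments, at 620.3, 642 and 1033 in mock against 1882, 1835 and 1592. RR16, a cytokinin response regulator gene and the tested member of its list, had a difference of 0.44 ± 0.56.

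Genes of the low-oxygen list fell with IAA in empty vector cells in 4 of 6 cases, against 0.403% of all tested probesets. The list was drawn up with earlier results of these arrays known, so nothing is read from that count. Of the 6, 5 had a positive difference, with a median of 0.67 and no call. AT3G10040, also named HRA1 for its part in attenuating the hypoxia response, had empty vector signals of 873, 902 and 1882 in mock and 143, 161 and 346 with IAA. The IAA19mII arrays read 315, 347 and 920.4 in mock and 190.2, 137 and 349 with IAA. With IAA the populations overlapped, and the difference was 1.32 ± 0.62 (limma adjusted p = 0.988). AT4G24110 was at 0.86 ± 0.40 (limma adjusted p = 0.988). AT4G10270, a member named after its values were seen, had responses of -4.05 with the empty vector and -3.10 with IAA19mII, and its difference of 0.94 ± 0.98 had an interval from -1.06 to 2.95. For AT3G10040 and AT4G10270 replicate 3 had the highest signal in every group, and the main fit has no term for the replicate number.

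Of the 8 sugar-starvation and sugar porter genes 3 were tested, 1 was called higher and the median difference was 1.38. SFP2, which neighbours SFP1 in the genome, was near the floor, between 0.6 and 36.2 on the 12 arrays, and had a difference of 0.29 ± 0.55. Of the 10 defence protein genes 4 were tested, 2 were called higher and the median was 1.2. Over all tested probesets 0.0474% were called higher. AT4G16260 was at 1.24 ± 0.42 (limma adjusted p = 0.65), and CHI, a chitinase gene, at 0.29 ± 0.30. BGLU15, a beta-glucosidase gene outside the lists, was at 1.31 ± 0.37 (limma adjusted p = 0.379). AT4G16260 and BGLU15 were named after their values were seen. These lists were drawn up with earlier results of these arrays known, so their counts describe the members and are no independent support for a direction.

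**Figure D5:**
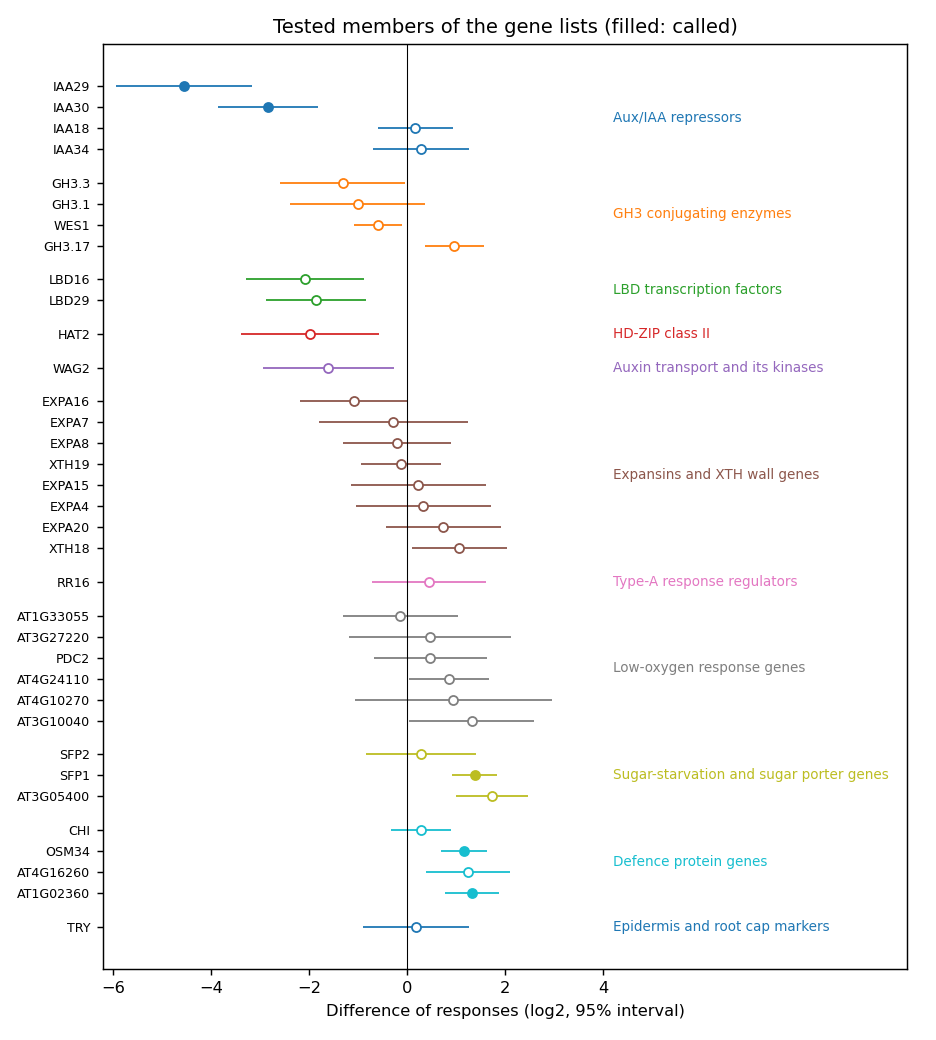
Difference of responses (log2) with 95% intervals for the tested members of each gene list, filled where called. IAA29 and IAA30 are called lower, SFP1, OSM34 and AT1G02360 are called higher, and the wall genes lie on both sides of 0.

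The arrays limit what could be seen. Their trimmed means were alike, 246.5 to 247.6, since they had been scaled, whereas the 75th percentile ran from 264 to 275 with the empty vector and from 224 to 238 with IAA19mII. The median SD of a probeset was 0.26 in mock and 0.29 with IAA for the empty vector, and 0.35 and 0.42 for IAA19mII, while the test pools the spread over groups. The median SE of the difference was 0.61 over the 4223 probesets with the lowest signals and 0.32 over the 4223 with the highest, which held all 8 higher calls and 1 of the 7 lower ones. Cell identity could be checked by few markers. Of 11 epidermis and root cap markers TRY, a regulator of epidermal hairs, was tested, with signals from 7.4 to 27.4 on the empty vector arrays and from 34.6 to 87 on the IAA19mII arrays. It was 1.07 higher in IAA19mII cells in mock, which did not pass the test (limma adjusted p = 0.0522), and 1.25 higher with IAA (limma adjusted p = 0.0153). The populations likewise did not overlap for 36.7% of all tested probesets in mock and 37.8% with IAA. No member of the inner tissue list, nor WEREWOLF itself, was analysed here. TRY had a difference of responses of 0.18 ± 0.52, and its part in the other results was not tested. In sorted bulk samples a smaller share of a cell type and less RNA per cell cannot be told apart.

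IAA7mII, the other over-expressor of the series, was compared with the same 6 empty vector arrays, so its differences are not independent of those above. Its difference of responses was -4.54 for IAA29, -2.73 for IAA30 and -2.69 for AT4G37380 (limma adjusted p = 0.00165, 0.0235 and 0.217). It was 1.39 for SFP1, 1.54 for AT3G46700, 1.12 for OSM34 and 1.38 for AT1G02360 (limma adjusted p = 0.00408, 0.0117, 0.0604 and 0.0351). For IQD27, which fell with IAA in IAA19mII cells, it was 0.32 and did not pass the test.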

How the data were processed

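Expression was measured on 18 ATH1 arrays in 6 groups of 3, and 12 of them enter the difference described here. The values deposited by the authors are linear MAS5 signal intensity, 1 value per probeset; MAS5 appears in the submitters' processing notes without a version. That scaling was kept. The test covered probesets whose signal passed the 40th percentile of the array on 3 or more of 18 arrays. The linear model on log2(signal + 16) (R 4.3.3, limma 3.58.1) gave each group its mean over all 18 arrays, with moderated variances and an intensity trend. P-values were adjusted by Benjamini-Hochberg over the 16892 probesets and called under 0.05. The fit was tested on simulated data. Alternatives were other pseudocounts, filters, scalings, tests and weights, the 12 arrays alone, the replicate number as a block, and each of the 12 arrays left out.

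Gene names come from the platform's probe table, matched to TAIR10.1 names: 13513 of the 22746 probesets carry 1 gene, 503 several and 8730 none. Other genes were not analysed here. The members and gene lists were chosen with earlier results of these data known. Plastid genes were taken by chromosome. Named are the called single genes, the 10 uncalled ones with the smallest p in each direction, and 4 called or 2 uncalled members at most from each list; the few genes outside this rule are marked. Over all tested probesets, same-numbered arrays of different groups showed little shared deviation (correlation over 0.1 in 1 of 18 pairs, from -0.0585 to 0.162). Such a correlation cannot show that the numbers do not pair the samples. For AT3G10040, AT4G10270 and AT3G27220 of the low-oxygen list, replicate 3 had the highest signal in every group. For the other tested members, AT4G24110, PDC2 and AT1G33055, it did not. The number of arrays limits the precision. No sequences are shown, since none was used here.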

Additional observations from a re-analysis of the deposited data

Results flagged for a closer look

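Each of these stands out because the test of the difference between the 2 populations' responses passed at an adjusted p under 0.05 (limma). The response to IAA was lower in IAA19mII cells for IAA29 (-4.54), 266346_at (-4.01), AT4G37380 (-3.25) and IAA30 (-2.84). It was higher for 267083_at (1.76), AT3G46700 (1.50), SFP1 (1.38), AT1G02360 (1.32), 253666_at (1.27) and OSM34 (1.16).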

How the results depend on the processing

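The count of 15 called probesets became 5, 7, 27 and 36 with pseudocounts of 1, 4, 64 and the largest, 4 times as large again, 3 without an intensity trend, 4 with an unmoderated test and 25 with array weights. Leaving out 1 array gave 4 to 15 calls. The count moved by over 1.5 times without empty vector mock replicate 2 (7) or 3 (7), empty vector IAA replicate 1 (8) or 2 (4), IAA19mII mock replicate 1 (8) or 2 (8), or IAA19mII IAA replicate 2 (9). It lay between 10 and 21 with the other filters, scalings, robust fit, 1 weight per group and the 12 arrays alone. With the replicate number as a block it was 21, and all 15 main calls were among them. Whether the numbers pair the samples is not known. At a pseudocount of 1 the difference turned to 0.16 for GH3.3 and -0.0298 for TRY. AT4G13180 turned to 0.027 with array weights and, with 1 array left out, ranged from -0.20 to 0.16. XTH19 then ranged from -0.31 to 0.10. These 4 were not called under the main setting. SFP1 lost its call in 1 of 27 settings, IAA29 in 3, IAA30 and AT3G46700 in 7 each, AT4G37380 and AT1G02360 in 17 each and OSM34 in 18. The cause was not tested. A scan batch could not be used as a block, since the array information files name none.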

Other observations

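Genes encoded in the plastid, which supply subunits of the photosynthetic and ribosomal complexes, were present on the arrays in 69 cases, of which 66 were tested. The difference of responses was negative for 47 and positive for 19, with a median of -0.24 against -0.02 over all tested probesets, and none was called (2 at an unadjusted p under 0.05). Those 2 were petB (-1.23 ± 0.49) and petA (-1.26 ± 0.61), which encode parts of the cytochrome b6f complex. Plastid genes may move together on an array, so nothing is read from the count of signs. In empty vector cells with IAA, psbA read 243, 759 and 129 and psbD 240, 891 and 173, while atpB read 361, 260 and 287. The signals of petB were 254, 289 and 219 in empty vector mock, 339, 509 and 330.3 with IAA, 511, 327 and 475 in IAA19mII mock and 330.4, 193 and 301 with IAA. The IAA19mII groups overlapped and the empty vector groups did not, a lack of overlap seen for 15.3% of all tested probesets. The response of petB with the empty vector, 0.58, did not pass its own test.

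Some of the named genes lie next to auxin genes. AT3G62110, raised by IAA in empty vector cells, neighbours IAA30. AT4G37380 neighbours AT4G37390, listed as BRU6 and on the GH3 list, which was not tested here. IQD27 neighbours IAA18, whose difference of responses was 0.17 ± 0.37. These are positions in the reference gene order, read after the genes had been named. How often other genes lie next to auxin genes was not tested, so no pattern is read from them.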
